A study of Arabidopsis thaliana with 4 samples.

Results

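The genes described here are 6 Arabidopsis thaliana genes of the dehydrin and late embryogenesis abundant (LEA) families that vegetative seedlings express: LTI30 (AT3G50970), COR47 (AT1G20440), AT1G54410, LEA4-5 (AT5G06760), AT2G44060 and AT2G46140. They were chosen by name, with earlier results of these data known. Each is read from the probe set that the platform annotation pairs with that gene alone, and each has 1 such probe set. They are 6 of 7204 genes tested and of 13355 genes with a single-gene probe set. The study set 2 insertion mutants of SFR6, which encodes a Mediator subunit, beside wild-type Col-0 in the cold. One experiment held sfr6-3 (WiscDsLox504A08) and its Col-0, and the other sfr6-2 (SALK_048091) and its Col-0. Every group was of seedlings 7 days old that spent 6 h at 5 °C before harvest, and each was hybridised to 1 array, which makes 4 arrays. No untreated group was analysed here, so the response to cold cannot be told apart from the level that came before it. In whole seedlings, fewer cells that express a gene and less RNA per cell cannot be told apart either.

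LEA proteins accumulate in drying seeds and in leaves and roots under cold, drought or salt, where they help to keep membranes and enzymes intact as water is withdrawn. Most are disordered in solution. Dehydrins are the LEA proteins that carry the lysine-rich K-segment, which can fold into a helix on a membrane or a protein surface, and they are grouped by charge and by further segments. Many dehydrin genes are switched on in the cold through the C-repeat element in their promoters, which CBF transcription factors bind, and SFR6 is known to be needed for full expression of such genes.

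Values are log2 expression values that the authors made with MAS5, and a difference of 1 is 2-fold. All 4 arrays had a trimmed mean of 500 on the linear scale, and the median of the genes tested lay between 8.49 and 8.58. The median gene stood 0.11 higher in sfr6-3 and 0.08 higher in sfr6-2 than in its own Col-0, a shift against which small ratios are to be read. RCA, a photosynthesis gene that marks green tissue, read between 14.74 and 14.95 on the 4 arrays. It was the 1 measured gene of 5 listed shoot markers. SFR6 has no single-gene probe set in the annotation used here, so the genotype was not checked on the mutated gene.

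LTI30 had the lowest ratio of the 6 genes in both mutants. It encodes a basic dehydrin built of repeated K-segments and rich in histidine, which binds membranes and is strongly induced by cold. In the sfr6-3 experiment it read 14.80 in Col-0 and 12.33 in sfr6-3. In the sfr6-2 experiment it read 15.21 in Col-0 and 13.48 in sfr6-2. Both mutant arrays lay below both Col-0 arrays, by more than the 0.40 between the wild-type arrays. The transcript was thus 5.57-fold lower in sfr6-3 and 3.32-fold lower in sfr6-2, ranks 20 and 78 from the lowest of 7204 genes.

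Over both alleles LTI30 fell by 2.10 on the log2 scale (SE 0.20, 95% interval -2.53 to -1.68, limma adjusted p = 1.62e-06), which is 4.30-fold. Of all genes tested, 3.4% passed as lower and 1.3% as higher. The test took the alleles as replicates of 1 mutant effect with experiment as a block, which leaves 1 residual degree of freedom beside 17.51 borrowed from other genes, so p-values rest mostly on variance pooled over genes. Without the block, or with any 1 array left out, limma called 0 genes in the whole table, LTI30 included, with 277 to 552 genes at an unadjusted p under 0.05. The highest reading of any probe set on the Col-0 array beside sfr6-2 was 15.21, the level of LTI30 there to 2 decimals.

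COR47 fell by a smaller amount that was nearly equal in the 2 alleles. It encodes an acidic dehydrin with a tract of serines beside its K-segments, and is a classical target of the CBF factors. It read 14.80 in Col-0 against 14.13 in sfr6-3, and 15.14 against 14.36 in the sfr6-2 experiment. These are ranks 4, 11, 3 and 13 from the brightest of the genes tested. Whether readings so near the top of an array narrow its ratios was not tested. Both mutant arrays again lay below both wild-type arrays. The log2 ratios were -0.67 and -0.78, and their difference of 0.11 compares with a median absolute difference of 0.34 between alleles over all genes. COR47 fell by 0.73 over both alleles (SE 0.18, limma adjusted p = 0.0216), which is 1.66-fold.

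That call of COR47 sits close to the threshold. It ended under 6 of 9 alternatives of scaling, filter and variance model, with an adjusted p of up to 0.457, while the size stayed between -0.82 and -0.54.

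AT1G54410 lay lower in both mutants and did not pass the test. It is the small histidine-rich dehydrin HIRD11, which binds metal ions and is present in unstressed plants too. It read 13.74 in Col-0 against 13.29 in sfr6-3, and 13.95 against 13.08 in the sfr6-2 experiment. The 2 groups did not overlap. The ratios of -0.45 and -0.88 gave a mean of -0.66 (SE 0.19, 95% interval -1.06 to -0.26, limma adjusted p = 0.0536). It stayed on that side of the threshold under all 9 of those alternatives, between -0.75 and -0.58.

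**Figure D1:**
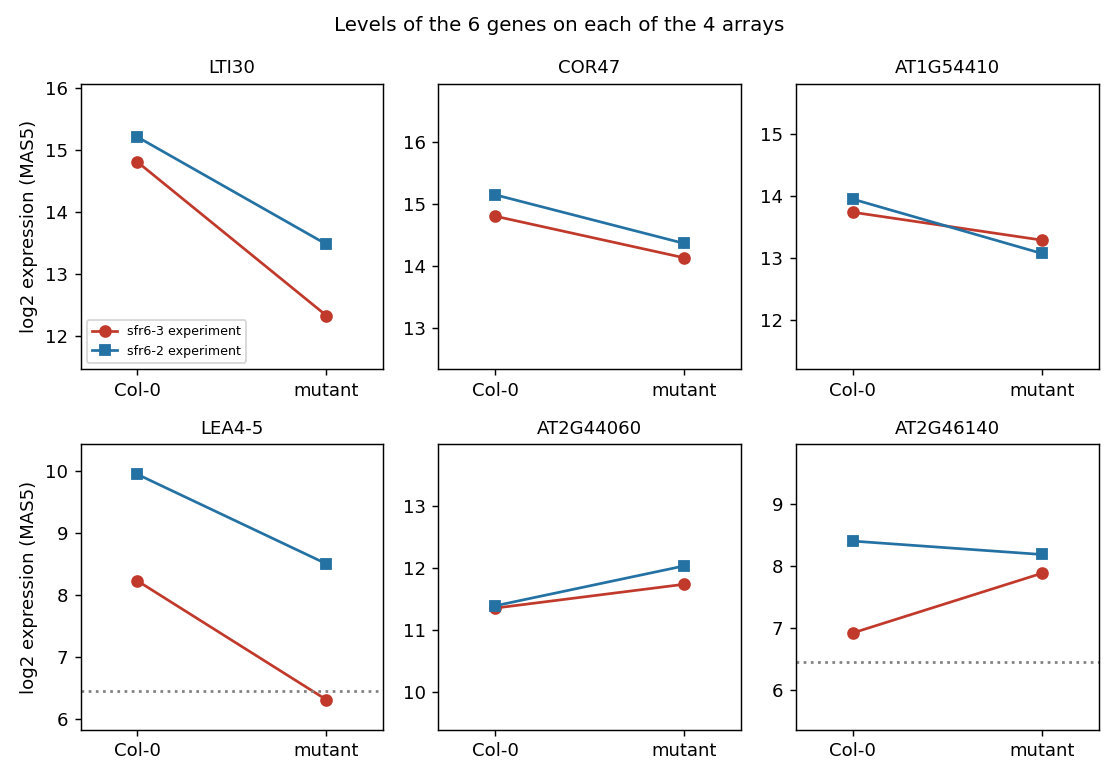
Log2 expression (MAS5) of the 6 genes on each array, Col-0 at left and mutant at right, with a line joining the 2 arrays of each experiment (red circles sfr6-3, blue squares sfr6-2). Each panel spans the same number of log2 units, and the dotted line is the filter level of 6.46. LTI30 drops most steeply, the lines of COR47 run nearly parallel, and for LEA4-5 the sfr6-2 array at 8.50 lies above Col-0 of the sfr6-3 pair at 8.23.

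Set against each other within arrays, the 3 dehydrins had unequal ratios, a difference that was not tested. The ratio of LTI30 minus that of COR47 was -1.81 in sfr6-3 and -0.95 in sfr6-2. Against AT1G54410 the ratio of LTI30 differed by -2.03 and -0.85. COR47 and AT1G54410 differed from each other by -0.22 in sfr6-3 and 0.09 in sfr6-2, with the order turning between the alleles. The acidic COR47 stood near AT1G54410 and apart from the basic LTI30. With 1 gene of each kind this is no comparison of charge classes.

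The lower LTI30 ratio was in sfr6-3, and the lower AT1G54410 ratio in sfr6-2. The gap between the alleles was -0.75 for LTI30, at percentile 83.0 of the absolute gaps over all genes, and 0.43 for AT1G54410, at percentile 59.4. With 1 array per line these gaps were not tested.

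LEA4-5 fell in both experiments from very different wild-type levels. It encodes an LEA protein of the LEA_1 family, also called group 4, which shields enzymes from inactivation during drying and is induced by water deficit and abscisic acid. It read 8.23 in Col-0 against 6.31 in sfr6-3, and 9.95 against 8.50 in the sfr6-2 experiment. The groups overlapped, since sfr6-2 lay above the Col-0 array that belongs to sfr6-3. The Col-0 arrays differed by 1.72, at percentile 97.3 of the absolute Col-0 differences over all genes, and the mutant arrays by 2.19 in the same direction. Within the experiments its ratio was -1.92 in sfr6-3 and -1.44, or 2.72-fold lower, in sfr6-2. The first is inexact, since the sfr6-3 value lies under the filter level, and was -1.77 with that value raised to the level and -1.64 with the offset added before logs.

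Over both alleles LEA4-5 fell by 1.68 (SE 0.25, 95% interval -2.20 to -1.16, limma adjusted p = 0.000264), or 3.21-fold. Without the experiment block the size was the same and the SE 0.86 (adjusted p = 0.864). Fits with 1 array left out also drop the block. The effect was -2.54 without Col-0 replicate 1, which is the control of sfr6-3, and -2.78 without sfr6-2. It was -0.58 without sfr6-3 and -0.82 without Col-0 replicate 2. Compared with Col-0 of the sfr6-3 experiment, a control chosen with the values in view, sfr6-2 stood 0.27 higher. The value of 6.31 in sfr6-3 is the only 1 of the 24 member values under the filter level of 6.46.

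Its relatives of the LEA_1 family, AtLEA4-1 and LEA18, had ratios above 0 in sfr6-2. AtLEA4-1 read 6.34 in Col-0 against 5.99 in sfr6-3, and 6.59 against 7.88 in the sfr6-2 experiment. LEA18 read 7.08 in Col-0 against 6.44 in sfr6-3, and 7.14 against 8.08 in the sfr6-2 experiment. For both genes sfr6-3 was the lowest array and sfr6-2 the highest. The other 3 arrays of AtLEA4-1 averaged 6.31, so that it passed the filter only through its level in sfr6-2, and that order is partly set by the filter. Their mean ratios of 0.47 and 0.15 did not pass the test (limma adjusted p = 0.612 and 0.885).

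AT2G44060 was higher in both mutants and did not pass. It is LEA26, of the LEA_2 family, an atypical branch whose members fold into a compact domain in place of staying disordered. It read 11.35 in Col-0 against 11.74 in sfr6-3, and 11.39 against 12.03 in the sfr6-2 experiment. The 2 wild-type arrays differed by 0.04, and both mutant arrays lay above them. The mean ratio was 0.51 (SE 0.20, 95% interval 0.09 to 0.93, limma adjusted p = 0.195), or 1.43-fold, and 0.42 with each array centred on its median.

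AT2G46140, or LEA27, of the same LEA_2 family, had ratios of opposite sign. It read 6.92 in Col-0 against 7.88 in sfr6-3, and 8.40 against 8.19 in the sfr6-2 experiment. The sfr6-3 array lay between the 2 Col-0 arrays, so that the groups overlapped. Its ratios were 0.96 and -0.22 and their mean 0.37 did not pass (SE 0.29, limma adjusted p = 0.570). Without Col-0 replicate 1, in a fit that also drops the experiment block, the mutant effect was -0.37. That fit sets both mutants against Col-0 of the sfr6-2 experiment alone. It thus carries the difference between experiments and is not a mean of ratios to own Col-0.

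The level of AT2G46140 differed by 1.48 between the Col-0 arrays, at percentile 95.9 of all genes. Of 6 listed root markers, 3 have a single-gene probe set, and their summed level on the log2 scale was 8.30 in Col-0 against 9.02 in sfr6-3, and 10.27 against 9.75 in the sfr6-2 experiment. It is ordered over the 4 arrays as AT2G46140 is. Among them AT1G30870, a peroxidase gene, read 7.73, 8.69, 9.93 and 9.37 in that order and carried most of the sum. EXPA7, a root hair expansin gene, read 6.33, 6.37, 7.92 and 7.17, with 6.33 and 6.37 under the filter level. The third, AT5G19890, had another order, at 4.44, 4.41, 4.37 and 5.83, all under the filter level. The part of root tissue in the values of AT2G46140, or in the Col-0 difference of LEA4-5, was not tested.

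Between families, the 3 measured dehydrins stood below the 2 measured LEA_2 genes in both experiments. Of 10 listed dehydrins, 6 have a single-gene probe set. Too dim for the test were AT2G21490 (-0.46 in sfr6-3 and 2.16 in sfr6-2), AT4G38410 (0.26 and 0.33) and AT4G39130 (-0.07 and 0.64). Their ratios are inexact. The mean ratio of the 3 measured dehydrins was -1.20 in sfr6-3 and -1.13 in sfr6-2. That of the 2 LEA_2 genes was 0.67 and 0.21, which makes differences of -1.87 and -1.34. Against AT2G44060 alone, whose 2 wild-type arrays nearly coincide, the differences were -1.58 and -1.77. LTI30 weighs most in these means: COR47 and AT1G54410 alone averaged -0.56 and -0.83, which makes -0.94 and -1.47 against AT2G44060. LEA4-5, of the LEA_1 family, lay below the dehydrin mean in both experiments, at -1.92 (inexact) in sfr6-3 and -1.44 in sfr6-2. The ratio of LTI30 minus that of LEA4-5 was -0.56 and -0.29. Low ratios were thus not confined to dehydrins. These contrasts were not tested. Of the 6 genes, 3 passed the test as lower, 0 as higher and 3 did not pass, beside 3.4% lower and 1.3% higher over all genes tested. Since the members were chosen with earlier results of these data known, such counts beside the shares are description only. Both mutants lay below both wild types for 3 genes, against 11.6% of all genes tested, and above them for 1 gene, against 24.8%. LTI30 and LEA4-5 were at least 2-fold lower in sfr6-3, as 3.85% of all genes were, and in sfr6-2, as 3.58% were. They are the 2 of 6 members past 2-fold in both, beside 1.6% of all genes.

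**Figure D2:**
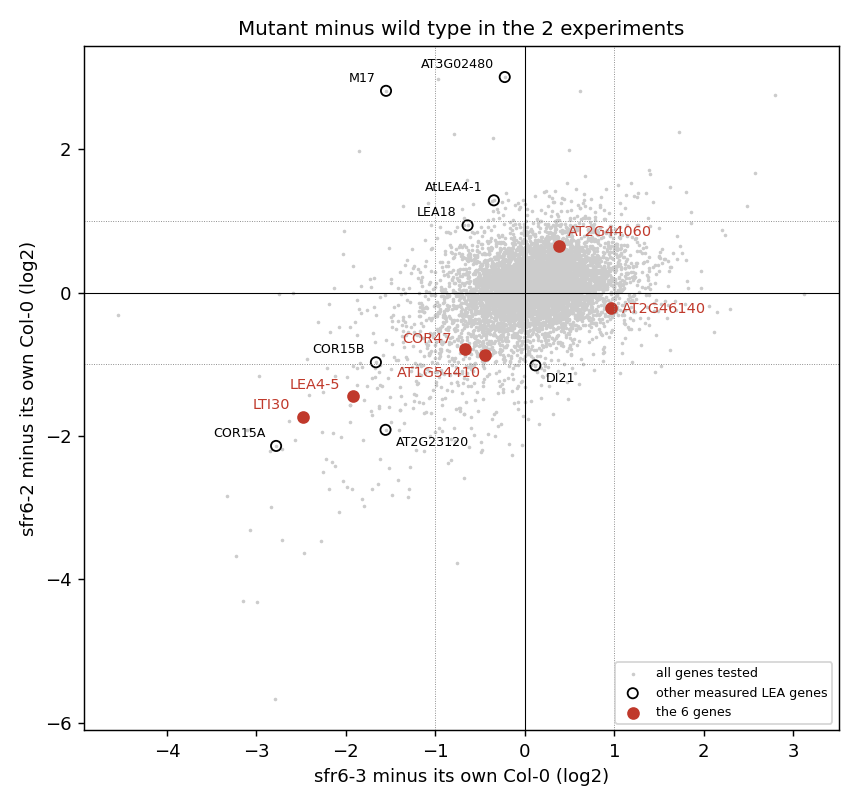
Log2 ratio of sfr6-3 to its own Col-0 (x axis) against that of sfr6-2 to its own Col-0 (y axis) for 7204 genes (grey), the 6 genes (red) and the other measured LEA genes (open circles); dotted lines mark 2-fold. LTI30 and LEA4-5 lie past 2-fold at lower left with COR15A and AT2G23120, COR47 and AT1G54410 lie inside it, AT2G44060 lies at upper right, and M17 and AT3G02480 lie at upper left.

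The wider LEA family was followed on a list of 48 genes by protein family, of which 33 have a probe set of their own and 14 were bright enough for the test. Of these 14, 6 fell, 0 rose and 8 did not pass, beside 3.4% of all genes tested that fell and 1.3% that rose. The list too was chosen with earlier results of these data known. The median ratio of the 14 was -0.66 in sfr6-3 and -0.83 in sfr6-2, beside 0.11 and 0.08 for all genes tested. Between the Col-0 arrays it was 0.30, beside 0.06 for all genes. Besides LTI30, COR47 and LEA4-5, those that fell were COR15A, COR15B and AT2G23120.

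AT2G23120 belongs to the PvLEA18 family of small disordered proteins, named after a bean gene. It read 13.78 in Col-0 against 12.22 in sfr6-3, and 14.32 against 12.40 in the sfr6-2 experiment. Both mutants lay below both wild types by more than the 0.54 between the Col-0 arrays. AT2G23120 fell by 1.74 (SE 0.19, limma adjusted p = 7.42e-06), with ratios of -1.56 and -1.92. It kept its call under every alternative that held the experiment block.

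COR15A and COR15B, of the LEA_4 family, encode chloroplast proteins that protect membranes in freezing. COR15A read 13.99 in Col-0 against 11.21 in sfr6-3, and 14.51 against 12.37 in the sfr6-2 experiment. Its ratios of -2.78 and -2.14 were lower than those of LTI30 in both alleles. COR15B, at -1.66 and -0.97, fell by 1.32 (limma adjusted p = 0.000465), and its call ended without the filter.

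The other measured LEA genes gave mixed directions. DI21, a drought-induced gene of the LEA_3 family, stood at 0.12 in sfr6-3 and -1.02 in sfr6-2. AT3G02480, of the LEA_4 list, stood at -0.22 and 3.01, and M17, of a family of embryo genes, at -1.55 and 2.81. M17 passed the filter only through its level of 8.33 in the control of sfr6-3, the other 3 arrays averaging 6.12. Its ratio of 2.81 is inexact, since Col-0 of the sfr6-2 experiment read 4.38, under the filter level. None of the 3 genes passed the test (limma adjusted p = 0.387, 0.0901 and 0.668). Opposite signs in the alleles were found for 6 of the 14 genes, a share close to the 37.5% of all genes tested. The 2 seed markers with a single-gene probe set, of 13 listed, had a summed level of 6.85 in Col-0 against 7.30 in sfr6-3, and 6.66 against 8.47 in the sfr6-2 experiment, highest in sfr6-2 as for LEA18 and AT3G02480. AT3G01570, an oleosin gene, carried that sum at 8.28 in sfr6-2, while OLEO3, the other, was lowest in sfr6-2, at 5.47. The part of seed transcripts in those values was not tested.

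**Figure D3:**
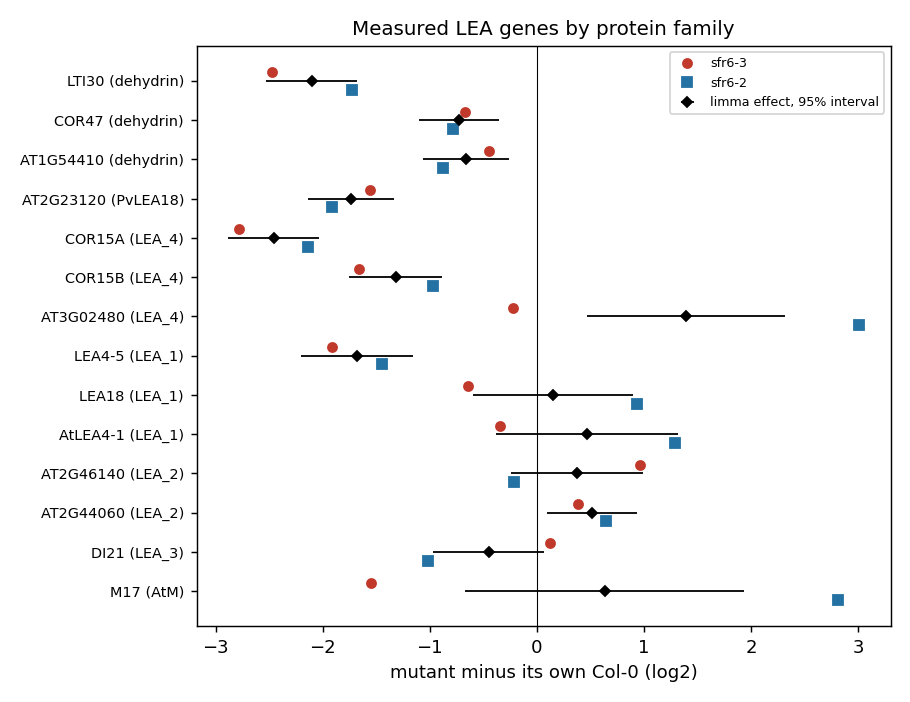
Log2 ratio to own Col-0 in sfr6-3 (red circles) and sfr6-2 (blue squares), and the limma effect with its 95% interval (black), for the 14 measured LEA genes, with the protein family in brackets. The 3 dehydrins, AT2G23120, COR15A, COR15B and LEA4-5 lie left of 0 in both alleles, AT2G44060 lies right of 0 in both, and the alleles of the other 6 lie on opposite sides.

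The genes most like each member over the 4 arrays were found by the distance between profiles after subtracting each gene's own mean. For LTI30 they were COR15A, at a distance of 0.37, and UGT72B3, a glucosyltransferase gene, at 0.45. For LEA4-5 they were AT1G70420 at 0.45 and AT4G36010 at 0.53, both of which share its high level in the sfr6-2 experiment. AT4G36010 read 10.53 in Col-0 against 8.38 in sfr6-3, and 12.75 against 10.79 in the sfr6-2 experiment. A distance is not scaled to the size of a gene's changes, so it does not rank likeness between members. The distances were shorter for the other 4 members. They were 0.09 and 0.10 for COR47, to ATG8H, an autophagy gene, and AT1G64590. For AT1G54410 they were 0.06 and 0.07, to AT3G50350 and AT1G29670. For AT2G44060 they were 0.03, to AT1G47640 and to AT1G11200. For AT2G46140 they were 0.06 and 0.10, to AT2G18370 and AT3G58550, and AT2G18370 too differed between the Col-0 arrays, at 7.41 and 8.88.

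All 6 genes read higher in Col-0 of the sfr6-2 experiment than in the other Col-0, as 55.6% of all genes did. Among the mutants 5 of the 6 read higher in sfr6-2, with AT1G54410 the exception, against 50.7% of all genes. The Col-0 differences were 0.04 for AT2G44060, 0.21 for AT1G54410, 0.35 for COR47 and 0.40 for LTI30, beside a median absolute difference of 0.32 over all genes. They were 1.48 for AT2G46140 and 1.72 for LEA4-5. For those 2 genes the wild-type spread between experiments exceeded the mean ratio.

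**Figure D4:**
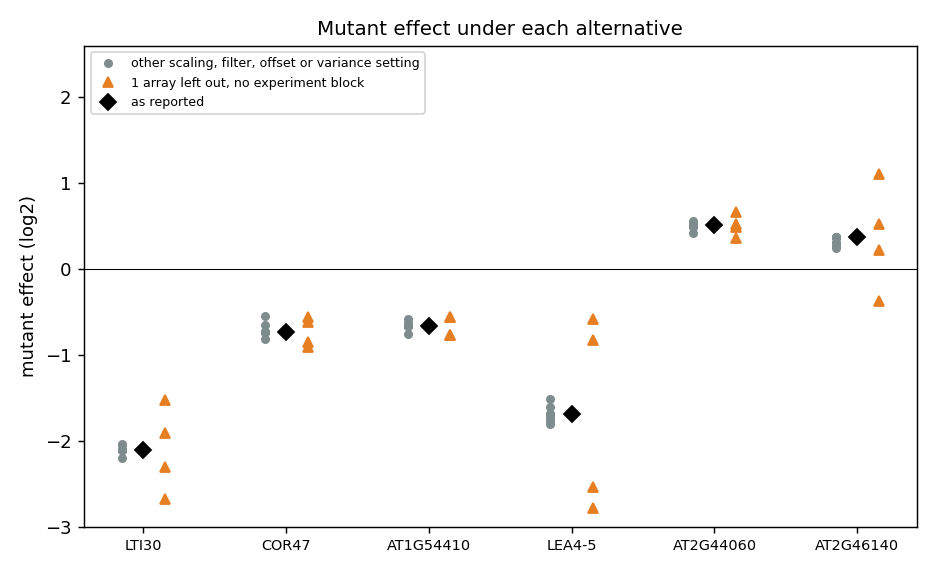
Mutant effect on each of the 6 genes (log2) as reported (black diamonds), under 8 or 9 other settings of scaling, filter, offset, probe sets or variance (grey circles) and with 1 array left out and no experiment block (orange triangles). Triangles spread from -2.78 to -0.58 for LEA4-5 and cross 0 for AT2G46140, and stay within 0.6 of the reported value for LTI30 and nearer for COR47, AT1G54410 and AT2G44060.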

How the data were processed

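The deposited log2 values were made by the authors with MAS5 from affy 1.36.1, per the submitters' processing notes; other steps are not given in the sources used here. Control probe sets (64 of 22810) were left out. Probe sets paired with 1 gene by the platform annotation (13513) were named through the TAIR10.1 gene table, and the probe set with the highest mean stood for a gene. Genes were kept from the 40th percentile of mean log2 value, 6.46. limma 3.58.1 in R 4.3.3 fitted genotype with experiment as a block, a variance trend and Benjamini-Hochberg adjustment over 7204 genes at 0.05. The fit was also run on simulated data that gave both alleles the same effect. That run cannot check whether the alleles are replicates of 1 effect. The experiment of each array comes from the labels. Ratios within 1 experiment have no test. Nothing says that samples came from separate cultures, so p-values may measure technical spread, and the number of arrays limits precision.

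The members and lists were chosen with earlier results of these data known. The text names the 6 members, every measured gene on the LEA lists, up to 3 genes of other lists and the 2 nearest profiles of each member. Charge classes are textbook knowledge, since protein and promoter sequences were not used here. Of listed CBF targets outside the LEA family 2 of 11 were measured, and both passed: AT1G16850 fell by 3.19 and TIL fell by 0.91. Of 12 listed genes of abscisic acid signalling 0 had a single-gene probe set. The 3 measured reference genes, of 7, had mean ratios over both alleles between 0.02 and 0.21 and did not pass. Their ratios in single alleles ran from -0.17 for AT4G34270 to 0.41 for AT2G28390, both in sfr6-3. Alternatives covered scaling, offset, filter, probe sets, variance trend, block and each array.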

Additional observations from a re-analysis of the deposited data

Results flagged for a closer look

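Measured LEA genes whose ratios had opposite signs in the 2 alleles, a difference that was not tested with 1 array per line, were AT2G46140 (0.96 in sfr6-3 and -0.22 in sfr6-2), AtLEA4-1 (-0.35 and 1.29), LEA18 (-0.64 and 0.94), DI21 (0.12 and -1.02), AT3G02480 (-0.22 and 3.01) and M17 (-1.55 and 2.81). They are 6 of 14 genes, a share close to the 37.5% of all genes tested that had opposite signs. AtLEA4-1 passed the filter only through sfr6-2, and M17 only through the control of sfr6-3. Their signs are thus partly set by the filter. The M17 ratio of 2.81 is inexact, since Col-0 of the sfr6-2 experiment read 4.38, under the filter level.

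Among 19 LEA genes too dim for the test, 4 read above the filter level of 6.46 on the sfr6-2 array alone. They were AT3G15670 at 8.89 (5.27 and 5.89 in Col-0, 1.41 in sfr6-3), AT3G17520 at 7.78 (6.13 and 6.33 in Col-0, 5.05 in sfr6-3), AT4G36600 at 7.47 (5.58 and 5.45 in Col-0, 3.98 in sfr6-3) and AT2G21490, a dehydrin gene, at 6.68 (6.17 and 4.52 in Col-0, 5.72 in sfr6-3). The other 15 stayed under that level on all 4 arrays. The share of all dim genes that read above the level on the sfr6-2 array alone was not counted, so these counts have no background.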

How the results depend on the processing

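The effects on LTI30 and LEA4-5 kept their direction and passed under all 9 alternatives of scaling, offset, filter, probe sets, dim values and variance, with adjusted p up to 0.0165 and 0.0136. COR47 no longer passed after quantile normalization (-0.54, adjusted p = 0.112), cyclic loess (-0.66, 0.0657) and median centring (-0.82, 0.0644), nor, at an unmoved -0.73, without the filter (0.457), with the filter at the 60th percentile (0.0619) and without the variance trend (0.168). Without the experiment block the effects stayed at -2.10 for LTI30, -0.73 for COR47 and -1.68 for LEA4-5, and none passed (adjusted p = 0.523, 0.864 and 0.864). Leaving out each array in turn, which also drops the block and assumes that the lone array of an arm varies like the rest, gave -2.68 to -1.53 for LTI30, -0.90 to -0.56 for COR47, -0.77 to -0.56 for AT1G54410, -2.78 to -0.58 for LEA4-5, 0.37 to 0.66 for AT2G44060 and -0.37 to 1.11 for AT2G46140, reversed at -0.37 without Col-0 replicate 1. Genes called lower numbered 245, with 158 after median centring, 101 without the filter, 136 at the 60th percentile, 140 without the trend, and 0 without the block or with any array left out (0 to 0). Genes called higher numbered 94, with 41 after quantile normalization, 17 after cyclic loess, 14 after median centring, 34 with the offset, 13 without the filter, 14 at the 60th percentile, 30 without the trend, and 0 without the block or any array. Listed LEA genes called lower numbered 4 to 6 while the block was kept, and 0 without it or any array. With the control arrays exchanged, an alternative chosen after seeing the data, LEA4-5 in sfr6-2 was reversed at 0.27, and AT2G46140 turned to -0.52 in sfr6-3 and 1.27 in sfr6-2. The causes were not tested. Of 60 ratios of single alleles under other scalings, the offset or dim values raised, 56 moved by less than the SD of a gene's 2 ratios and 0 changed sign. The 4 that moved more were all of COR47, whose SD of 0.08 is the smallest of the members. Raising dim values could move only the LEA4-5 ratio in sfr6-3.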

Other observations

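The 19 listed LEA genes that were too dim for the test, most of them of the LEA_4 list, were counted by ratio beside all 6151 genes whose mean level was under the filter level of 6.46, where ratios are inexact and often past 2-fold. In sfr6-2 the log2 ratio was above 1 for 12 of the 19, beside 25.7% of dim genes, and below -1 for 2, beside 19.1%. In sfr6-3 it was above 1 for 4, beside 23.4%, and below -1 for 8, beside 20.4%. It was above 0 in both alleles for 8 genes, beside 32.3% of dim genes, and below 0 in both for 2, beside 20.2%. Above 1 in both, as 7.28% of dim genes were, stood AT2G18340 at 3.22 in sfr6-3 and 3.29 in sfr6-2, AT1G72100 at 1.93 and 4.73, AT2G42560 at 1.41 and 1.79, and AT3G22490 at 1.54 and 3.52. Below -1 in both, as 5.36% were, stood AT4G13230 at -1.71 and -2.25. These 5 read under the filter level on every array, were singled out after their values were seen, and were not tested.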
